A study of Saccharomyces cerevisiae S288C with 6 samples.

Results

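RTA1, RSB1 and PUG1 are the named Saccharomyces cerevisiae genes of the Rta1-like proteins, small fungal plasma membrane proteins with a bundle of membrane-spanning helices that are also called lipid-translocating exporters. The 3 genes were taken by symbol through the platform annotation out of 5356 genes tested, and each had 1 probe set on the array. They had been selected on their signals in these same PFA and DMSO arrays, so their changes are given as a description, without a test. YLR046C, a further yeast gene of the same family, was not among the listed genes and is set beside them.

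Haploid yeast of strain S288C was grown in synthetic dextrose medium buffered with MOPS at pH 7.0. The PFA group received plakortide F acid, an antifungal endoperoxide polyketide of marine sponges, at its IC50 of 0.62 ug/ml when the culture stood at an optical density of 0.2. The DMSO group received the solvent alone at 0.25%, and both groups were collected at an optical density of 0.5. Each group held 3 cultures that the titles call biological replicates, with 1 expression array per culture, and the 6 arrays limit the precision. The labels do not state how long each culture grew or how much DMSO the PFA cultures held, so the compound, its solvent and the time in culture cannot be told apart. Each array reads RNA of a whole culture of a single strain, in which a change in every cell and a change in part of the cells cannot be told apart.

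Proteins of this family are known for moving, or protecting against, amphipathic molecules at the membrane. Rta1 was found because extra copies of its gene gave resistance to the sterol analogue 7-aminocholesterol. Rsb1 is a putative exporter of sphingoid long-chain bases, the building blocks of ceramide, and is known to rise in cells that have lost the asymmetry of phospholipids across the plasma membrane. Pug1 takes part in the uptake of protoporphyrin and the release of heme, and RTA1 and PUG1 are both known to be induced when heme or oxygen is low. The product of YLR046C has no assigned substrate, and its gene is known as a target of the drug resistance factors Yrr1 and Yrm1.

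All 3 named family genes were higher in PFA, RTA1 by far the most, whereas YLR046C was not detectably different. For RTA1 (YGR213C) the signals were 3092, 3076 and 3171 in PFA replicates 1 to 3, against 167, 160 and 144 in DMSO replicates 1 to 3. The lowest PFA array was 18.4 times the highest DMSO array. The mean was 3113 ± 51.0 in PFA and 157 ± 11.8 in DMSO (SD, n = 3 each), 19.8-fold higher in PFA by the ratio of geometric means (log2 change 4.31 ± 0.08, SE).

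For PUG1 (YER185W) the signals were 919, 842 and 1070 in PFA replicates 1 to 3, against 165, 144 and 129 in DMSO replicates 1 to 3. The groups lay far apart, with the lowest PFA array 5.1 times the highest DMSO array. The mean was 944 ± 116 in PFA and 146 ± 18.1 in DMSO (SD, n = 3 each), 6.46-fold higher in PFA (log2 change 2.69 ± 0.12, SE).

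For RSB1 (YOR049C) the signals were 299, 360 and 306 in PFA replicates 1 to 3, against 59.2, 41.0 and 57.7 in DMSO replicates 1 to 3. The groups did not overlap, and DMSO replicate 2 was the lowest of the 6 arrays. The mean was 322 ± 33.3 in PFA and 52.6 ± 10.1 in DMSO (SD, n = 3 each), 6.17-fold higher in PFA (log2 change 2.63 ± 0.18, SE). RSB1 was the dimmest of these probe sets relative to the background level of 20.01, the 95th percentile of the array's probe sets for another organism, although all 3 DMSO arrays were above it. Its geometric DMSO mean was 2.59 times that level, so a constant added before the logarithm weighs on its fold. With 64 added the fold was 3.31, and with 16 added it was 4.94.

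For YLR046C the signals were 552, 490 and 521 in PFA replicates 1 to 3, against 621, 555 and 520 in DMSO replicates 1 to 3. These values overlapped, and the gene's geometric DMSO mean was 28.2 times the background level. Its log2 change was -0.12 ± 0.09 (SE, limma adjusted p = 0.306), and it lay between -0.19 and -0.05 over 11 other settings.

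**Figure D1:**
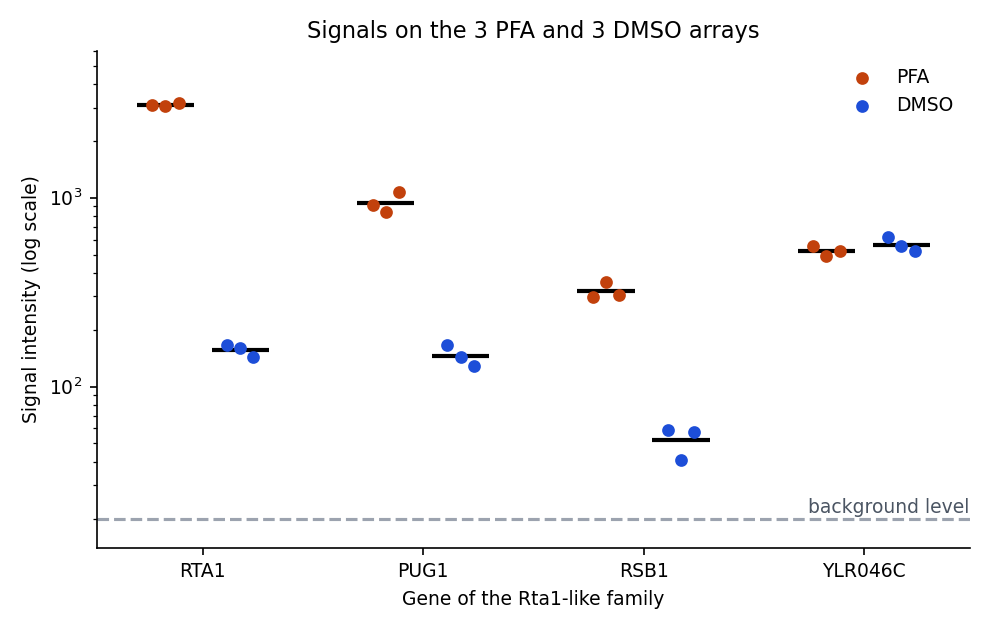
Signal intensity of each array (log scale) for RTA1, PUG1, RSB1 and YLR046C, with PFA arrays left of DMSO arrays, black lines at the geometric means and a dashed line at the background level of 20.01. The PFA points of the first 3 genes lie wholly above their DMSO points, while those of YLR046C overlap; heights of different genes come from different probe sets and cannot be set against each other.

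The size of the change differed within the family, by a difference of log2 changes computed array by array. RTA1 exceeded RSB1 by 1.69 ± 0.21 on the log2 scale (SE, 95% interval 1.09 to 2.28), which is a fold 3.22 times as large. It exceeded PUG1 by 1.62 ± 0.10 (SE, 95% interval 1.34 to 1.90), or 3.07 times. RSB1 and PUG1 could not be ordered. Their difference, RSB1 minus PUG1, was -0.06 ± 0.25 (SE) with a 95% interval of -0.77 to 0.64, so that the fold of RSB1 could be 0.586 to 1.56 times that of PUG1. The sign of this difference turned without PFA replicate 3 (0.06), without DMSO replicate 3 (0.10) and after quantile normalization (0.02). The 3 pairs were compared on the samples that chose the genes, so these intervals describe the spread of the arrays and no p-value is given.

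Large parts of the transcriptome differed between these cultures, which sets the scale for the family. Of all genes tested, 62.0% differed at a limma adjusted p under 0.05, 30.3% higher and 31.8% lower in PFA, and in 66.6% the PFA and DMSO arrays did not overlap, with the PFA arrays above in 32.4% of the genes. That the 3 named genes were all in the last class is therefore part of how they were chosen and is not a result. Their size also belongs to the contrast on which they were chosen, so the ranks of the 3 genes are a description too. By size they lay far out in the distribution. RTA1 had the 12th largest rise, and 0.224% of the tested genes had a log2 change at least as large. The share was 0.784% for PUG1 at rank 42 and 0.84% for RSB1 at rank 45. YLR046C stood close to the middle, since 58.8% of the genes had a log2 change at least as high, and the median over all genes was -0.02.

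**Figure D2:**
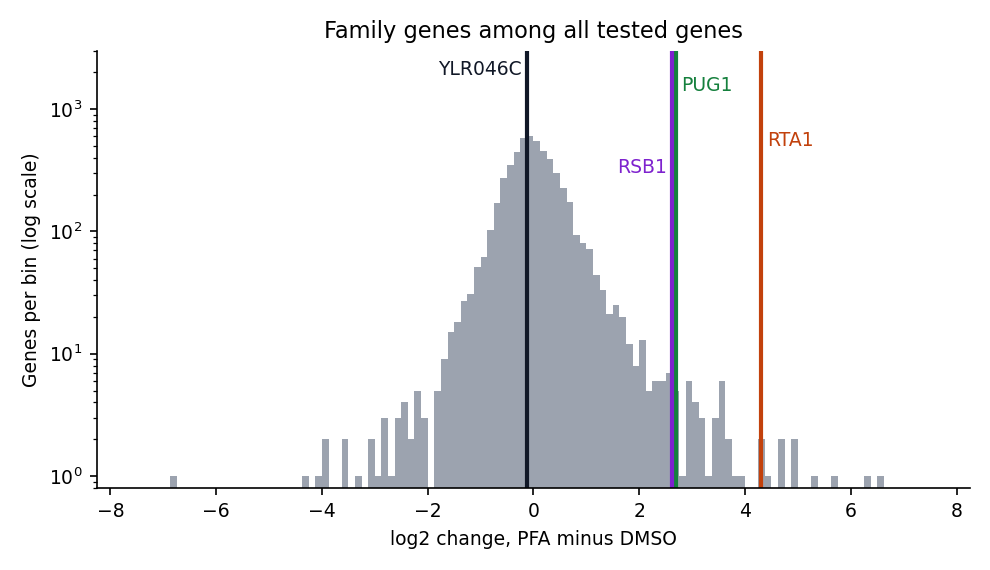
Histogram of the log2 change, PFA minus DMSO, of the 5356 tested genes (genes per bin on a log scale), with lines at the family genes. RTA1 at 4.31 lies in the sparse right tail, PUG1 at 2.69 and RSB1 at 2.63 lie side by side, and YLR046C at -0.12 lies in the central peak.

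Arrays of a group also differed little for RTA1 in PFA. Its coefficient of variation was 1.64% in PFA and 7.51% in DMSO. For PUG1 it was 12.3% in PFA and 12.4% in DMSO, and for RSB1 10.3% in PFA and 19.2% in DMSO. Leaving out any of the 6 arrays moved the fold of RTA1 between 19.0 and 20.5, that of PUG1 between 6.05 and 6.88 and that of RSB1 between 5.48 and 6.59. With 3 arrays a group, the spread itself is poorly known.

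The genes with the most similar profiles were found by the root-mean-square difference over the 6 arrays, on log2 signals set to the DMSO mean of each gene. Nearest to RTA1 were BAG7, which encodes a GTPase-activating protein for Rho1, at a distance of 0.10, and BAP2, a permease gene for branched-chain amino acids, at 0.13. BAG7 was 19.9-fold and BAP2 22.1-fold higher in PFA. The proline oxidase gene PUT1 (0.29), the peptide transporter gene PTR2 (0.29) and NQM1 (0.45) followed at larger distances. Nearest to RSB1 were YGP1, which encodes a secreted glycoprotein, at 0.17, and MOH1 at 0.19. The ammonium permease gene MEP1 (0.20), DIA1 (0.21) and the phospholipase B gene PLB1 (0.21) came next. For PUG1 they were MEP1 (0.13), PRM7 (0.13), PLB1 (0.13), DIA1 (0.15) and MOH1 (0.17). RSB1 and PUG1 shared 4 of these 5 genes, and RTA1 shared 0 of 5 with either. YLR046C ran closest to the riboflavin kinase gene FMN1 (0.04), PET127 (0.04), the glycyl-tRNA synthetase gene GRS1 (0.05), the potassium transporter gene TRK1 (0.05) and YPP1 (0.05). With only 2 conditions this distance mostly follows the size of the change, and it says nothing of shared control.

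The protein-coding genes on either side of the named family genes did not rise, apart from a neighbour of PUG1. Next to RTA1, SLI1, which encodes an acetyltransferase that protects against the sphingolipid synthesis inhibitor myriocin, averaged 206 ± 31.6 in PFA and 206 ± 25.0 in DMSO (SD, n = 3 each). On the other side the ribosomal protein gene RPS0A fell 1.46-fold (limma adjusted p = 1.02e-06). Next to RSB1, the nuclear exonuclease gene RAT1 had a log2 change of -0.10 ± 0.08 (SE, limma adjusted p = 0.293), and ETT1 fell 1.25-fold (limma adjusted p = 0.00486).

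PUG1 was the exception. Its neighbour TOG1, which encodes a transcription factor for the use of oleate and is read from the opposite strand in the direction away from PUG1, had signals of 528, 431 and 543 in PFA against 131, 141 and 173 in DMSO. TOG1 rose 3.38-fold (limma adjusted p = 2.87e-07), while YER186C on the other side fell 1.47-fold (limma adjusted p = 0.000171). Beside YLR046C, the microtubule-binding protein gene STU2 was called lower by a small amount (log2 change -0.25 ± 0.10, SE, limma adjusted p = 0.0434). That call was lost in limma without the variance trend (adjusted p = 0.0535) and when any array other than DMSO replicate 2 was left out. FRE8 had a log2 change of 0.03 ± 0.19 (SE, limma adjusted p = 0.890), which turned below 0 after centring on the median, after quantile normalization and without PFA replicate 3, DMSO replicate 1 or DMSO replicate 3.

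**Figure D3:**
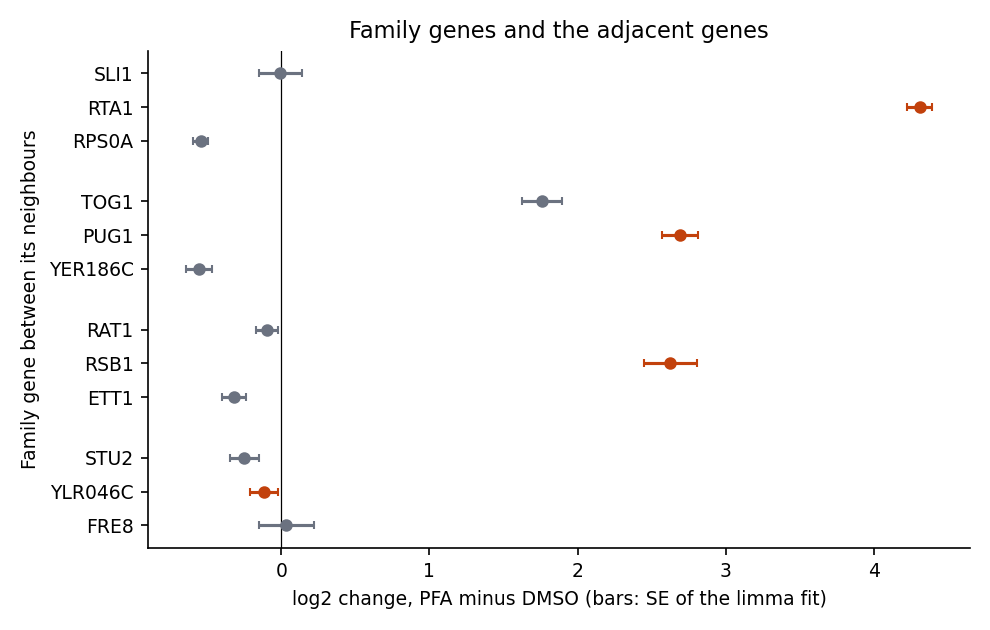
Log2 change, PFA minus DMSO, of each family gene (orange) between the genes on either side of it on the chromosome (grey), with bars for the SE of the limma fit. TOG1, the neighbour of PUG1, is the only grey point far right of 0, at 1.76.

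Regulators of drug resistance, several of which are known to act on RSB1 or YLR046C, rose in 5 of 11 cases (45.5%) and fell in 1 (9.09%), beside 30.3% and 31.8% of all genes. PDR1, the main activator of efflux pump genes, averaged 2291 ± 53.3 in PFA and 1338 ± 48.9 in DMSO (SD, n = 3 each), a 1.71-fold rise (limma adjusted p = 1.72e-06). UPC2, the activator of sterol synthesis and uptake genes, had signals of 682, 723 and 927 in PFA against 257, 215 and 238 in DMSO, a 3.26-fold rise (limma adjusted p = 1.54e-07). Its relative ECM22 had a log2 change of -0.18 ± 0.08 (SE, limma adjusted p = 0.0748), called lower after quantile normalization (adjusted p = 0.0192), after centring (0.0201) and when PFA replicate 1 was left out (0.0497). PDR8 rose 1.57-fold, YAP1, the activator of the oxidative stress response, 1.56-fold and YRR1 1.33-fold (limma adjusted p = 0.0104). YRM1 had a log2 change of -0.03 ± 0.09 (SE, limma adjusted p = 0.791) and PDR3 of 0.23 ± 0.10 (SE, limma adjusted p = 0.0666). PDR3 was called higher without PFA replicate 3 (adjusted p = 0.0493) and without the variance trend (adjusted p = 0.0468).

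Of 19 measured genes of the drug pump list 9 (47.4%) rose and 5 (26.3%) fell, beside 30.3% and 31.8% of all genes. The median log2 change was 0.22 against -0.02 over all genes. Among those that fell were AUS1 and PDR11, sterol importer genes that are counted again below in the low-oxygen and sterol-uptake list. The ABC transporter gene PDR10 rose 3.53-fold, the acid exporter gene AQR1 3.34-fold and the multidrug pump gene SGE1 3.24-fold. PDR5, the main drug efflux pump gene, rose 1.32-fold (limma adjusted p = 0.000147), and ATR1 fell 2.67-fold. QDR3 was called higher (limma adjusted p = 0.0423), a call lost after quantile normalization (adjusted p = 0.146), after centring (0.124) and without the variance trend (0.0533). It was also lost with the replicate block and without PFA replicate 1, PFA replicate 3, DMSO replicate 1 or DMSO replicate 3. The count of pump genes that rose ran from 8 to 10 over the 14 other settings. Another list held 9 genes of lipid and membrane metabolism, drawn up as targets of Pdr1 and Pdr3. Whether each is such a target was not tested. Of the 9 genes, 6 (66.7%) rose and 2 (22.2%) fell, beside the same 30.3% and 31.8%, with a median of 0.35. The count of those that fell was 1 when any array other than PFA replicate 3 was left out, since the hydroxylase gene SUR2 then lost its call. The count of those that rose was 5 after quantile normalization, after centring and without PFA replicate 1 or DMSO replicate 2. PDR16 lost its call in each of these settings. ICT1, encoding a lysophosphatidic acid acyltransferase, rose 4.71-fold, with signals of 4527, 4315 and 4447 in PFA against 964, 917 and 941 in DMSO. The reductase gene GRE2 rose 3.08-fold and IPT1, which completes the most complex sphingolipid, 2.46-fold.

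Sphingoid bases are the molecules Rsb1 is thought to export, and the genes that make and degrade them split in direction. Of 19 such genes 9 (47.4%) rose and 8 (42.1%) fell, beside 30.3% and 31.8% of all genes, with a median log2 change of -0.01. YSR3, a phosphatase of phosphorylated sphingoid bases, stood apart with signals of 3159, 2926 and 3334 in PFA against 249, 234 and 289 in DMSO, a 12.2-fold rise (limma adjusted p = 1.61e-11). Smaller rises were found for the ceramidase gene YDC1 (1.64-fold), the sphingoid base kinase gene LCB4 (1.29-fold) and the lyase gene DPL1 (1.22-fold, limma adjusted p = 0.00216). The ceramide synthase gene LAG1 fell 1.66-fold and the reductase gene TSC10 fell 1.60-fold. ORM1 and ORM2, paired inhibitors of the first step, went opposite ways, with ORM2 1.35-fold higher and ORM1 1.48-fold lower. Counts of those that fell dropped to 5 without PFA replicate 2 and without DMSO replicate 2. They dropped to 6 when any other array was left out and in limma without the variance trend. SUR2, TSC3 and LCB3 were the genes that lost their calls, each in several of these settings. The count of those that rose stayed at 9 in all of them.

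Phospholipid flippases keep the plasma membrane asymmetric, and loss of that asymmetry is a known inducer of RSB1. Of 14 listed genes 7 (50%) rose and 1 (7.14%) fell, beside 30.3% and 31.8% of all genes, with a median log2 change of 0.43. Among those that rose was CRF1, which under this name is YDR223W, a corepressor of ribosomal protein genes and no flippase subunit, and without it 6 of 13 rose. YPK1, a kinase that acts upstream of the flippase kinases, rose 1.85-fold, the flippase gene DNF3 1.53-fold, DNF2 1.38-fold and NEO1 1.34-fold. DNF1, whose product works at the plasma membrane together with Dnf2, was the gene that fell, 1.34-fold (limma adjusted p = 0.00352).

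The Rim101 pathway, which senses the state of the plasma membrane and alkaline pH and is known to act on RSB1, had 6 of 10 genes (60%) higher and 1 (10%) lower, beside 30.3% and 31.8% of all genes, with a median log2 change of 0.54. RIM101, encoding its repressor, had signals of 3841, 3574 and 4381 in PFA against 1924, 2116 and 2034 in DMSO, a 1.94-fold rise (limma adjusted p = 1.05e-06). NRG1, which Rim101 is known to repress, rose 2.39-fold, and RIM20 and RIM8, whose products carry the signal, 1.62-fold and 1.61-fold. RIM21, the sensor, fell 1.67-fold.

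Other genes known to respond to low oxygen or to serve sterol uptake were listed because RTA1 and PUG1 share a known induction by low heme and low oxygen. Of 22 such genes 3 (13.6%) rose and 11 (50%) fell, beside 30.3% and 31.8% of all genes, with a median log2 change of -0.41. Whether heme or oxygen played a part in the levels of RTA1 and PUG1 was not tested. The heme synthesis gene HEM13, a standard marker of low heme and low oxygen, had signals of 1372, 1261 and 1214 in PFA against 4107, 4075 and 3862 in DMSO, a 3.13-fold fall (limma adjusted p = 2.5e-09). The ADP/ATP carrier gene AAC3 fell 3.09-fold, the cell wall mannoprotein gene TIR1 2.28-fold and the translation factor gene ANB1 2.22-fold. The sterol importer genes AUS1 and PDR11, known targets of Upc2, fell 1.73-fold and 1.46-fold. Those that rose were UPC2 itself, SUT1 (2.25-fold), a regulator of sterol uptake, and MGA2 (1.43-fold), a membrane-bound activator of the fatty acid desaturase gene. DAN1 was near the background level, above it on 2 of 3 arrays in each group, and was not called. The call of CYC7 as lower was lost in limma without the variance trend (adjusted p = 0.0578), without PFA replicate 1 (0.0565), without DMSO replicate 1 (0.0763) and without DMSO replicate 3 (0.0525). PAU23, listed under its older name DAN2, fell 1.23-fold on the brighter of its probe sets, while its other probe set, which is shared with related sequences, had a log2 change of 0.77.

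In heme metabolism 4 of 12 genes (33.3%) rose and 2 (16.7%) fell, beside 30.3% and 31.8% of all genes, so the share that rose was near that of all genes. The median log2 change was -0.07. HAP1, the heme-responsive activator, of which S288C carries an allele disrupted by a transposon, rose 2.37-fold (limma adjusted p = 1.2e-08), and the heme oxygenase gene HMX1 rose 1.93-fold. ROX1, the repressor of low-oxygen genes, rose 1.25-fold (limma adjusted p = 0.00698) and its partner MOT3 1.63-fold. Besides HEM13, HEM1, the first enzyme of heme synthesis, fell 1.34-fold.

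Among 12 other multi-helix membrane proteins of the cell surface 5 (41.7%) rose and 5 (41.7%) fell, beside 30.3% and 31.8% of all genes. The rhodopsin-like gene YRO2 rose 5.03-fold, from the same structural class HSP30 rose 1.56-fold, and MRH1 fell 1.43-fold. The glucose receptor gene GPR1 rose 1.70-fold. The pheromone receptor genes STE2 and STE3 fell 4.75-fold and 3.03-fold. STE3 belongs to alpha cells, the known mating type of S288C, and STE2 to a cells, and both were above the background level on all 6 arrays. IZH4 was called higher (log2 change 0.36 ± 0.14, SE, limma adjusted p = 0.0392), a call lost after centring (adjusted p = 0.0796), after quantile normalization (adjusted p = 0.114), without the variance trend (adjusted p = 0.0618) and when any array other than DMSO replicate 2 was left out.

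**Figure D4:**
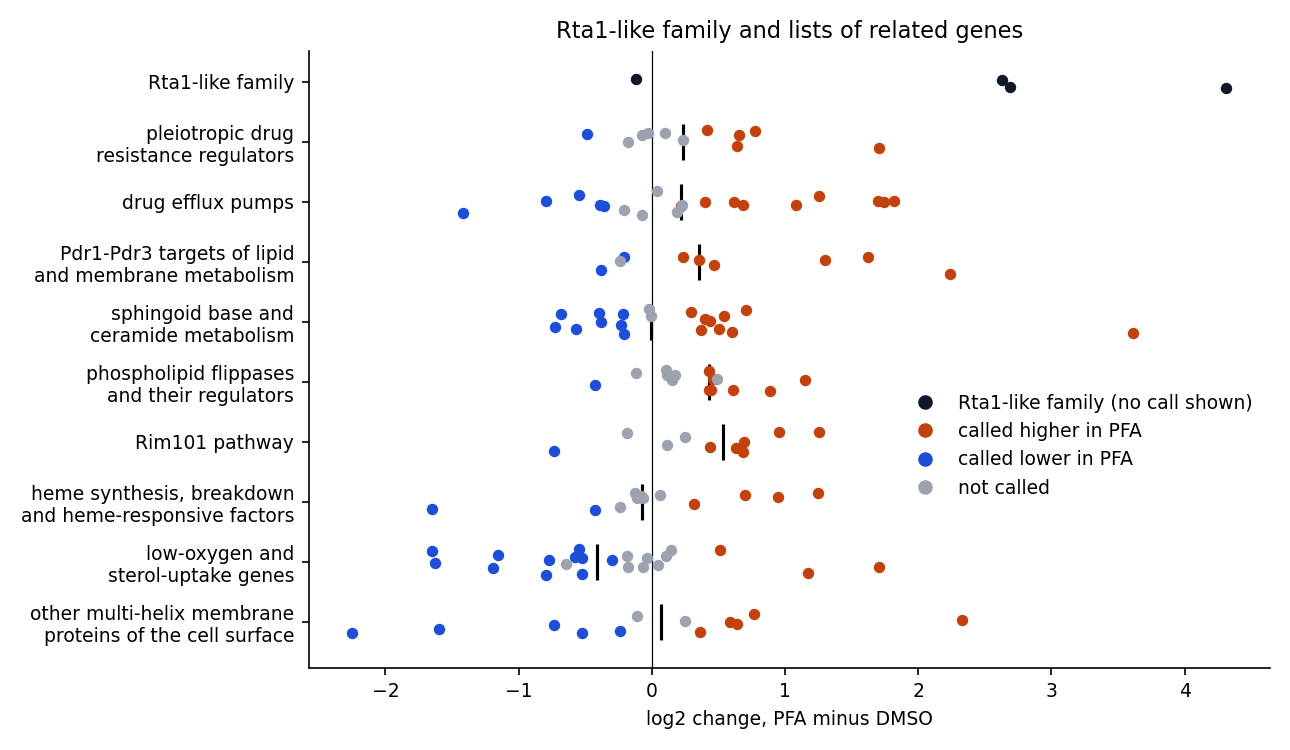
Log2 change, PFA minus DMSO, of every measured gene of each list, with points coloured by the limma call, vertical bars at the list medians and the family in black with no call shown. RTA1 at 4.31 lies right of every listed gene, YSR3 at 3.61 is the next, and the low-oxygen genes lie mostly left of 0 with a median of -0.41.

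The ratio of 3' to 5' signal for the ACT1 control was 1.19 to 1.25 in PFA and 1.20 to 1.28 in DMSO, and that for the SPT15 control was 2.13 to 2.29 in PFA and 2.13 to 2.40 in DMSO. Correlations of log2 signals over all tested genes were at least 0.991 within a group and at most 0.929 between groups.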

How the data were processed

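RNA of 3 PFA and 3 DMSO cultures was labelled with biotin and hybridized to 1 array each. The authors deposited 1 signal intensity per probe set, on a linear scale. The software was GCOS 1.1, per the submitters' processing notes. The summary algorithm is not given in the sources used here. The trimmed mean of the deposited intensity (2% off each end) was 1001 on every array, so the authors had scaled the arrays, and a shift of all transcripts would not be seen.

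Of 10928 probe sets, 5498 matched 1 yeast gene by the platform annotation, updated with RefSeq symbols (assembly R64), and these covered 5449 genes. The brightest probe set stood for a gene, and genes with a mean log2 signal above the background level (log2 4.32) were tested. The test of log2 signals used limma 3.58.1 under R 4.3.3, two-sided, with a variance trend, Benjamini-Hochberg adjustment over 5356 genes and a threshold of 0.05, and the same procedure was tested on simulated data. The fit did not pair the groups. Adjacent genes came from the order of protein-coding genes in the RefSeq table. The 10 lists were drawn up by known function, and the members and lists were chosen with earlier results of these data known. AUS1, PDR11, UPC2, ECM22, HEM13, SUR2, LAC1, RIM21 and DFG16 stood in more than 1 list and were counted in each. The counts of different lists are therefore not independent, while the lists together count each gene once. The text names the family, the 5 nearest profiles and adjacent genes of each, a fixed set of regulators and up to 4 of the largest called changes per list. NEO1, RIM8, HEM1, SUT1, ANB1, AUS1, PDR11, MGA2, CYC7, DAN1, PAU23, MRH1, HSP30, IZH4, ORM1, ORM2, SUR2, TSC3, LCB3, PDR16 and QDR3 were given values, or named for a lost call, after these were seen. Alternatives were quantile normalization, median centring, pseudocounts of 16 and 64, other filters, no variance trend, a replicate block, all probe sets and leaving out each array. Plots used matplotlib 3.10.9 (Python 3.11.15).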

Additional observations from a re-analysis of the deposited data

How the results depend on the processing

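The log2 changes of RTA1, PUG1 and RSB1 stayed above 0 under all 11 alternatives. They depended on the pseudocount, which lowers the fold of dim genes by construction. RTA1 had a log2 change of 4.18 with 16 added and 3.85 with 64 added, RSB1 2.30 and 1.73, and PUG1 2.26 with 64 added. With 64 added the difference RTA1 minus RSB1 was 2.12 and RSB1 minus PUG1 was -0.53. The difference RSB1 minus PUG1 ran from -0.23 to 0.10 when arrays were left out in turn, and turned sign without PFA replicate 3 (0.06), without DMSO replicate 3 (0.10) and after quantile normalization (0.024). The cause was not tested. A filter at the median yeast signal left fewer genes to test, with 813 genes higher and 1080 lower in PFA. In the lists together it gave 33 and 19, against 53 and 30. It also removed RTA1, PUG1 and RSB1, whose mean log2 signals lay below that median, so it is not among the 11 alternatives. Centring on the median shifted all genes by -0.06 and gave 1426 higher and 1971 lower. Of the 83 list genes that were called, 75 kept their call under all 13 settings that tested the same genes or more. Of 252 recomputed list counts, 232 stayed within 1.5 times.

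Replicate numbers shared by the groups gave no clear sign that the arrays were paired, although 3 arrays a group cannot exclude a pairing. Deviations of same-numbered arrays correlated at -0.09 to 0.16, and 2 of 6 arrays correlated best with their own number. With the replicate number as a block, 1642 genes were higher and 1724 lower, while the log2 changes of RTA1 (4.31), RSB1 (2.63) and PUG1 (2.69) cannot move under a block in a balanced design. Each family gene had 1 probe set, so no other probe set could be tried.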
